A study of Mus musculus with 12 samples.

Results

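The 10 genes described here encode aspartoacylase and enzymes that make and remove histamine, start the breakdown of histidine, and make, methylate and split carnosine. They are *Hdc*, *Hnmt*, *Aoc1*, *Maoa*, *Maob*, *Hal*, *Carns1*, *Cndp2*, *Carnmt1* and *Aspa*, and they were chosen by their gene symbols from the 46983 annotated genes of the table, in which all 10 were found. RNA was measured in C2C12, a mouse myoblast cell line that fuses into myotubes, by paired-end RNA sequencing. WT cells carried the PB-IP vector, a PiggyBac transposon vector, and are labelled wild type, while PPARγ/+ cells carried the PPARγ coding sequence in that vector, with selection on puromycin after the transfection. Both were collected on 0d and on 5d of differentiation, which gave 12 libraries, 3 in each of the groups WT_0d, PPARγ/+_0d, WT_5d and PPARγ/+_5d. The study calls the overexpression inducible and the 3 replicates biological. It lists histidine metabolism among the enriched pathways found only in PPARγ/+ cells. The genes described here were chosen with earlier results of these data known. The promoter that drove PPARγ, whether an inducer was applied, the number of clones and whether replicates were separate cultures are not given in the sources used here, so that p-values measure only the spread between these libraries.

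Histamine is made from histidine by *Hdc*, histidine decarboxylase, and is best known from mast cells and from the stomach. It is inactivated either by methylation of its ring by *Hnmt*, after which a monoamine oxidase removes the amine, or by the diamine oxidase *Aoc1*. Histidine is also deaminated to urocanate by *Hal*, mainly in liver and skin. Skeletal muscle stores histidine in another form, the dipeptide carnosine, which *Carns1* makes from β-alanine and histidine, *Carnmt1* methylates to anserine, and cytosolic dipeptidases such as *Cndp2* can hydrolyse. Carnosine and anserine buffer protons in working muscle.

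Each library held between 15557884 and 22013302 fragments on genes, and levels are given as FPKM, fragments scaled to the length of the gene and to the depth of the library. *Pparg*, the overexpressed gene, measured 7.56, 5.10 and 6.92 FPKM in WT_0d and 44.4, 28.0 and 46.4 FPKM in PPARγ/+_0d. On 5d it measured 3.12, 3.53 and 4.59 FPKM in WT cells and 40.1, 44.1 and 92.7 FPKM in PPARγ/+ cells, so that every PPARγ/+ library was above every WT library. The summed level of 7 myoblast and myotube markers lay between 15.1 and 156 FPKM on 0d and between 1184 and 5766 FPKM on 5d, and all 7 had more than 3 fragments in every library except *Ckm* in PPARγ/+_0d. WT_0d replicate 2 was the highest of its group in these markers with 156 FPKM against 19.0 and 32.8, and WT_5d replicate 3 was the lowest of its group with 1218 FPKM against 4192 and 5766. Of 4 macrophage markers, *Adgre1* and *Ptprc* had at most 3 fragments in any library, and the summed level, which came almost wholly from *Cd68* and *Csf1r*, lay between 2.07 and 5.13 FPKM. Results that rest on the libraries that stood apart are given with and without them.

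Of the 10 enzymes, 9 reached 0.1 FPKM in 3 libraries or more and were tested, and *Aoc1* did not. *Maob* passed this filter only through libraries of 5d, so that its calls as higher on 5d concern a gene admitted where it was high. *Hnmt* passed through the WT_0d libraries and WT_5d replicate 1, so that its lower levels outside WT_0d also concern a gene admitted where it was high. Between 0d and 5d a gene was called where limma gave an unadjusted p-value no higher than 0.05 and the change was 2-fold or more on the log2(FPKM + 0.1) scale. In WT cells 3 of the 9 were called, *Maob* and *Carns1* higher on 5d and *Hnmt* lower, while 16.5% of all genes tested were called, 8.94% as higher and 7.53% as lower. Under median-ratio scaling 3 were called, all higher, with *Aspa* in place of *Hnmt*. In PPARγ/+ cells 4 of the 9 were called, *Hdc*, *Maob*, *Carns1* and *Aspa*, all 4 higher on 5d, while 15.2% of all genes were called and 9.11% were called as higher. With 1 FPKM added in place of 0.1, limma called 0 of the 9 in either cell type, beside 8% and 6.89% of all genes, and 6 and 7 of the 9 had an unadjusted p-value under 0.05, beside 46.5% and 54.1%. The 9 had a median log2 change of 0.03 in WT cells and 0.88 in PPARγ/+ cells, beside -0.08 and -0.10 for all 18023 genes tested. The groups of 0d and 5d did not overlap for 7 of the 9 in WT cells and for 8 of the 9 in PPARγ/+ cells, as they did not for 51.1% and 58.1% of all genes.

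The interaction of cell type and day compares the change in PPARγ/+ cells with that in WT cells, and limma called it for 0 of the 9 and for 0.76% of all genes with adjusted p-values up to 0.05. At an unadjusted p-value under 0.05 there were 2 of the 9, *Hdc* and *Maoa*, beside 12% of all genes. Between PPARγ/+ and WT cells the call needed an adjusted p-value up to 0.05 with a 2-fold difference, and limma called 0 of the 9 on 0d, where it called 1.59% of all genes, and 0 of the 9 on 5d, where it called 0.155%. The counts at an unadjusted p-value under 0.05 were 5 of the 9 on 0d beside 21.7% of all genes, and 3 of the 9 on 5d beside 12.7%. The libraries of both cell types did not overlap for 5 of the 9 on 0d and for 3 of the 9 on 5d, as they did not for 26.8% and 18.5% of all genes. Adjusted p-values in the text are Benjamini-Hochberg values of limma over all genes tested.

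**Figure D1:**
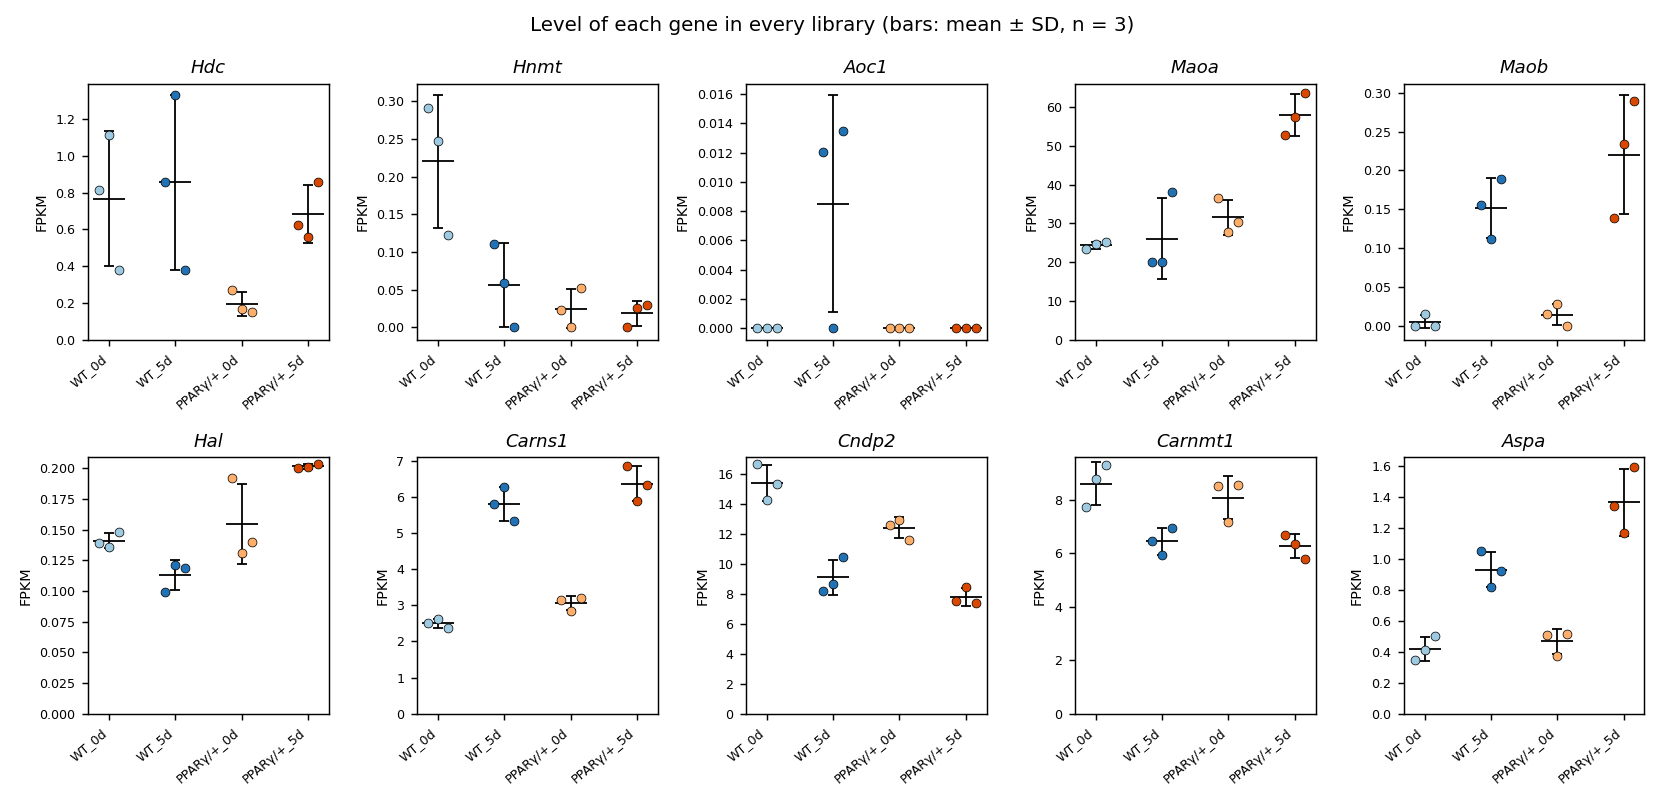
FPKM (vertical axes, each with its own range) of the 10 enzyme genes in every library of the 4 groups, with points for libraries and bars for the mean ± SD of 3. *Carns1*, *Maob* and *Aspa* were higher in every 5d library than in any 0d library, *Cndp2* and *Carnmt1* were lower, and *Maoa* was highest in the 3 PPARγ/+_5d libraries.

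*Hdc*, the gene of the enzyme that makes histamine, rose in PPARγ/+ cells and varied widely among WT libraries. It lies at chr2:126593667-126619299 on the minus strand (GRCm38, ENSMUSG00000027360). In PPARγ/+ cells it measured 0.269, 0.168 and 0.151 FPKM on 0d and 0.626, 0.560 and 0.859 FPKM on 5d. All 3 values on 5d were above all 3 on 0d, and the log2 change was 1.40 (SE 0.24, adjusted p = 0.00338, limma). In WT cells it measured 0.815, 1.11 and 0.379 FPKM on 0d and 0.860, 1.33 and 0.378 FPKM on 5d, each value resting on 55 to 179 fragments. The WT groups overlapped over nearly their whole range, with a log2 change of 0.10 (SE 0.51, adjusted p = 0.897).

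The lowest *Hdc* level was that of PPARγ/+_0d, 0.196 ± 0.0642 FPKM (SD, n = 3), and all of its libraries were below all 9 others. WT_5d with 0.856 ± 0.476 FPKM, WT_0d with 0.768 ± 0.368 FPKM and PPARγ/+_5d with 0.682 ± 0.157 FPKM followed each other from the top without separation. On 0d the log2 difference of PPARγ/+ from WT cells was -1.47 (SE 0.38), which missed the threshold (adjusted p = 0.0974, limma), and on 5d it was -0.17 (SE 0.42, adjusted p = 0.887). The interaction was 1.30 (SE 0.59, unadjusted p = 0.0490, adjusted p = 0.414, limma), so that the change in PPARγ/+ cells was not shown to differ from that in WT cells.

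Among the WT libraries, WT_0d replicate 2 was the highest of its group in *Hdc* and in the muscle markers, and WT_5d replicate 3 was the lowest of its group in both. However, WT_5d replicate 1 was the highest of its group in the markers and replicate 2 in *Hdc*. In PPARγ/+_0d the order was reversed, with 15.1, 22.0 and 38.6 FPKM of markers beside 0.269, 0.168 and 0.151 FPKM of *Hdc*. PPARγ/+_5d replicate 3 was the highest of its group in both. Without WT_0d replicate 2 and WT_5d replicate 3 the log2 change in WT cells was 0.82 (SE 0.44, adjusted p = 0.229, limma), the interaction was 0.58 (SE 0.47, adjusted p = 0.616), and the difference on 0d was -1.18 (SE 0.37, adjusted p = 0.213). As the highest *Hdc* library of WT_0d and the lowest of WT_5d were left out, the direction of these moves was fixed by the choice. The part of the muscle markers in the *Hdc* values was not tested, and fewer cells of a type and less RNA per cell cannot be told apart in these bulk libraries. As *Hdc* is a gene of mast cells, 7 mast cell markers were read beside it. All 7 held at most 3 fragments in any library, and their summed level lay between 0 and 0.150 FPKM over the libraries. *Kit* and *Fcer1a*, which define mast cells, were at 0 in every library.

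**Figure D2:**
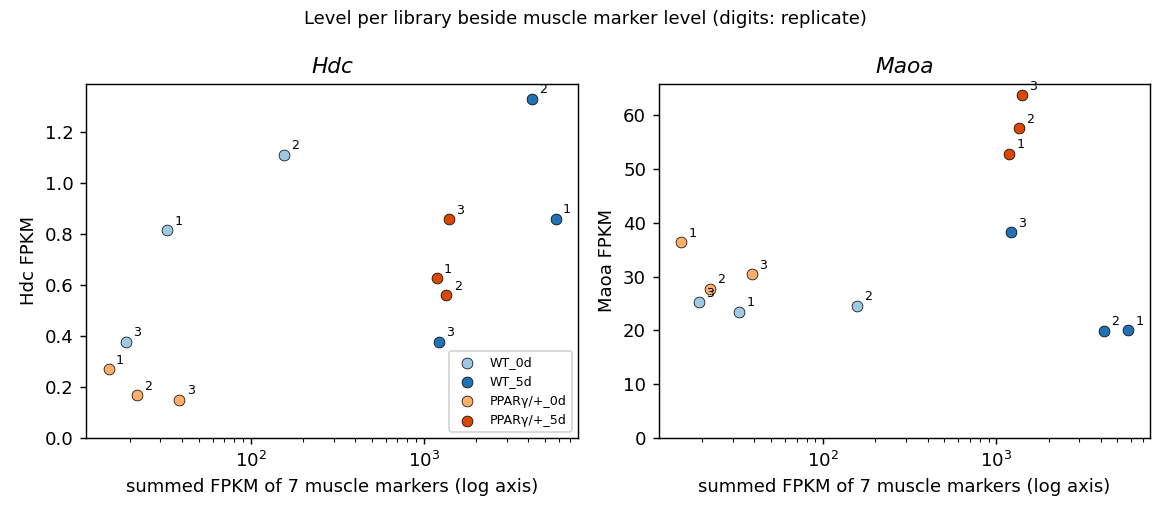
FPKM of *Hdc* (left) and *Maoa* (right) against the summed FPKM of 7 myoblast and myotube markers on a log axis, with a point for each of the 12 libraries, coloured by group and numbered by replicate. WT_5d replicate 3 lies near the PPARγ/+_5d libraries in its muscle markers (1218 FPKM), with 38.2 FPKM of *Maoa* and 0.378 FPKM of *Hdc*.

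*Hnmt*, the histamine methyltransferase, was near the limit of detection and was seen mainly in WT_0d. It lies at chr2:24002910-24049394 on the minus strand. The WT_0d libraries measured 0.291, 0.247 and 0.122 FPKM, on 10, 11 and 5 fragments, and the WT_5d libraries 0.111, 0.0586 and 0 FPKM, on 5, 2 and 0 fragments. The groups did not overlap, and *Hnmt* fell by 1.06 on the log2 scale (SE 0.37, adjusted p = 0.0685, limma), a call by the unadjusted p-value. That call did not hold when WT_0d replicate 1 or 2, or WT_5d replicate 2 or 3, was left out, with log2 changes of -0.89, -0.98, -1.10 and -0.77.

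In PPARγ/+ cells *Hnmt* had 3 fragments in all on 0d and 2 on 5d, spread as 1, 0 and 2 and as 0, 1 and 1 over the libraries, so that no change between these days could be measured at this depth. On 0d the 3 fragments stood against 26 in WT cells, a level 9.25-fold lower with an exact 95% interval of 2.83 to 47.7 for counting error only. The libraries did not overlap there, but the test missed its threshold (limma, adjusted p = 0.0643). This difference concerns a gene that passed the filter through WT_0d, where it was high. On 5d, 2 fragments stood against 7, 3.15-fold lower with an interval of 0.600 to 31.1 that includes 1. *Aoc1*, the diamine oxidase of the other route (chr6:48872896-48909188, plus strand), had 1 fragment each in WT_5d replicates 1 and 3 and 0 in all other libraries, which allows up to 3 fragments in a library. Its level was below what these libraries could measure.

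The monoamine oxidases, mitochondrial enzymes that deaminate amines, differed from each other in level and in course. They are neighbours on chromosome X, *Maoa* at chrX:16619698-16687818 on the plus strand and *Maob* at chrX:16709282-16817366 on the minus strand. *Maoa*, which prefers serotonin and noradrenaline, was the highest of the 10 genes in FPKM in every group. In PPARγ/+ cells it measured 36.4, 27.7 and 30.5 FPKM on 0d and 52.8, 57.5 and 63.6 FPKM on 5d. These groups did not overlap, with a log2 difference of 0.88 (SE 0.11, adjusted p = 0.00101, limma) that stayed short of a fold change of 2. Under median-ratio scaling, which moved the median log2 change of all genes from -0.10 to 0.02 in PPARγ/+ cells and from -0.08 to 0.02 in WT cells, the *Maoa* difference was 1.01 and passed.

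In WT cells *Maoa* measured 23.5, 24.6 and 25.2 FPKM on 0d and 20.1, 20.0 and 38.2 FPKM on 5d. Replicates 1 and 2 of WT_5d were below all WT_0d libraries and replicate 3 was above them, and the log2 difference over all 3 was 0.03 (SE 0.25, adjusted p = 0.95, limma). On 5d the 3 PPARγ/+ libraries were above the 3 WT libraries, 58.0 ± 5.43 against 26.1 ± 10.5 FPKM (SD, n = 3), with a log2 difference of 1.21 (SE 0.27) that missed the threshold (adjusted p = 0.172, limma). The interaction was 0.85 (SE 0.30, unadjusted p = 0.0146, adjusted p = 0.265, limma).

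These results for *Maoa* turned on WT_5d replicate 3, the library of low muscle marker level. Without it the log2 difference of PPARγ/+ from WT cells on 5d was 1.52 (SE 0.09, adjusted p = 0.00604, limma), and the interaction was 1.16 (SE 0.15, adjusted p = 0.00390), both past their thresholds. The log2 difference of 5d from 0d in WT cells then was -0.28 (SE 0.06, adjusted p = 0.0198). As the WT_5d library with the highest *Maoa* was left out, the direction of these moves was fixed by the choice. The same choice raised the calls over all genes from 28 to 723 on 5d and from 137 to 527 in the interaction. With WT_0d replicate 2 left out as well, the interaction was 1.16 (SE 0.16, adjusted p = 0.00806). On 0d *Maoa* differed by 0.36 on the log2 scale between the cell types (SE 0.10, adjusted p = 0.124), also without overlap of the libraries. The summed level of 5 adipocyte markers, with *Lep* at 0 in every library, was also highest in PPARγ/+_5d, with 13.1 to 65.9 FPKM. It was 2.79 to 4.73 FPKM in PPARγ/+_0d and at most 0.0794 FPKM in WT libraries. PPARγ/+_5d replicate 3 was the highest of all 12 in *Maoa* and in this sum. Within WT_5d, replicate 3 had the highest *Maoa* but the lowest sum, 0.0388 FPKM against 0.0625 and 0.0792. The part of the adipocyte markers in the *Maoa* level was not tested.

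*Maob*, the form that prefers phenylethylamine and the methylated histamine made by *Hnmt*, rose from 0d to 5d in both cell types at a far lower level. WT_0d libraries had 0, 1 and 0 fragments and WT_5d libraries 11, 6 and 12 fragments, which is 0.155, 0.111 and 0.189 FPKM. PPARγ/+_0d libraries had 1, 2 and 0 fragments and PPARγ/+_5d libraries 8, 14 and 15 fragments, or 0.138, 0.233 and 0.289 FPKM. Every library of 5d was above every library of 0d in both cell types. By fragments the level was 29.1-fold higher on 5d in WT cells (exact 95% interval of 4.82 to 1188) and 14.7-fold higher in PPARγ/+ cells (4.64 to 74.3). The fitted log2 changes, which depend on the 0.1 FPKM added, were 1.26 (SE 0.23, adjusted p = 0.00778, limma) and 1.47 (SE 0.27, adjusted p = 0.00427). On 5d the cell types overlapped, with a log2 difference of 0.33 (SE 0.26, adjusted p = 0.632).

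Even on 5d *Maob* was a small share of the monoamine oxidase FPKM. It made up 0.604% ± 0.143 in WT_5d and 0.373% ± 0.0996 in PPARγ/+_5d (SD, n = 3), against at most 0.0990% in any 0d library.

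**Figure D3:**
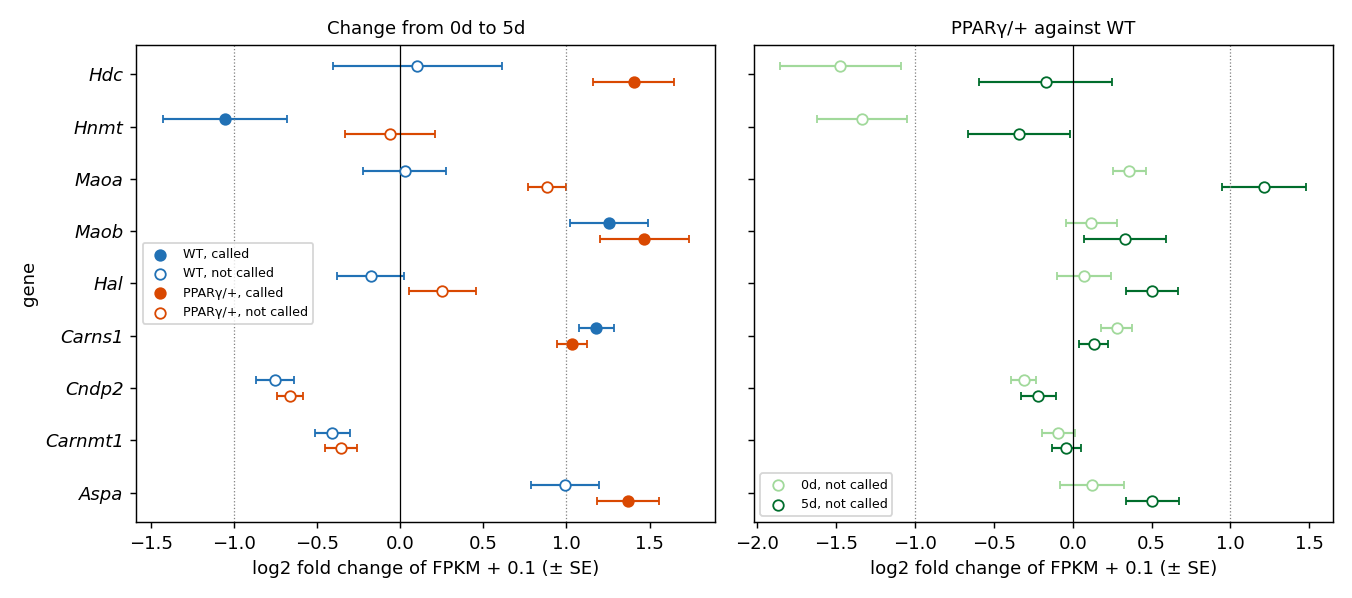
Log2 fold change of FPKM + 0.1 (horizontal axes) from 0d to 5d in WT and PPARγ/+ cells (left) and of PPARγ/+ against WT cells on each day (right) for the 9 tested enzymes, with bars for ± SE of limma, filled points for called genes and dotted lines at a fold change of 2. *Maob* and *Carns1* were called in both cell types on the left, and no gene was called on the right.

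*Hal*, histidine ammonia-lyase (chr10:93488768-93519304, plus strand), was low in all 4 groups and was not called in any comparison. In WT cells it measured 0.139, 0.136 and 0.148 FPKM on 0d and 0.0990, 0.121 and 0.119 FPKM on 5d, on 13 to 19 fragments a library. The PPARγ/+ libraries measured 0.192, 0.131 and 0.140 FPKM on 0d and 0.200, 0.201 and 0.204 FPKM on 5d, on 17 to 26 fragments. The 5d libraries were below those of 0d in WT cells and above them in PPARγ/+ cells, without overlap in either. The log2 differences, which depend on the 0.1 FPKM added, were -0.18 (SE 0.20, adjusted p = 0.529, limma) and 0.25 (SE 0.20, adjusted p = 0.347). Over the alternatives they lay between -0.32 and -0.036 in WT cells and between 0.050 and 0.51 in PPARγ/+ cells. PPARγ/+_5d was the highest group and WT_5d the lowest, with a log2 difference of 0.50 between them (SE 0.17, adjusted p = 0.318), and the interaction was 0.43 (SE 0.28, adjusted p = 0.595).

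Of the carnosine genes, the synthase rose from 0d to 5d in both cell types, while the hydrolase and the methyltransferase had lower values in every 5d library by less than 2-fold. *Carns1*, carnosine synthase, lies at chr19:4164324-4175479 on the minus strand. In WT cells it measured 2.51, 2.63 and 2.37 FPKM on 0d and 5.81, 6.28 and 5.33 FPKM on 5d, and it rose by 1.18 on the log2 scale (SE 0.11, adjusted p = 6.23e-04, limma). In PPARγ/+ cells it measured 3.14, 2.84 and 3.20 FPKM on 0d and 6.88, 5.91 and 6.33 FPKM on 5d, and it rose by 1.03 (SE 0.09, adjusted p = 1.94e-04). The days were far apart beside the spread within each group. The rise in PPARγ/+ cells was close to the threshold of 2-fold and was 0.98 without PPARγ/+_0d replicate 2 or without PPARγ/+_5d replicate 1.

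*Carns1* was above WT in all 3 PPARγ/+ libraries on 0d, by 0.28 on the log2 scale (SE 0.10, adjusted p = 0.174, limma), and the cell types overlapped on 5d, with a difference of 0.13 (SE 0.09, adjusted p = 0.592). The interaction was -0.15 (SE 0.13, adjusted p = 0.731). The later annotation used here for positions places 2 other genes on exons of *Carns1*, of which AC109138.8 on the same strand shares 1345 bases, so that the level of *Carns1* may depend on how such fragments were assigned.

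*Cndp2*, the cytosolic dipeptidase (chr18:84667465-84685702, minus strand), measured 16.7, 14.3 and 15.4 FPKM in WT_0d and 8.23, 8.68 and 10.5 FPKM in WT_5d. The PPARγ/+ libraries measured 12.6, 13.0 and 11.6 FPKM on 0d and 7.53, 8.47 and 7.39 FPKM on 5d. All libraries of 5d were below all libraries of 0d in each cell type, and the log2 differences of -0.76 (SE 0.12, adjusted p = 0.00373, limma) and -0.67 (SE 0.08, adjusted p = 6.08e-04) were short of 2-fold. On 0d PPARγ/+ cells were below WT cells in all 3 libraries, by -0.31 on the log2 scale (SE 0.08, adjusted p = 0.0918), and on 5d the cell types overlapped.

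The FPKM of *Cndp2* per FPKM of *Carns1* was therefore lower on 5d. It was 6.18 ± 0.661 in WT_0d, 4.08 ± 0.467 in PPARγ/+_0d, 1.59 ± 0.325 in WT_5d and 1.23 ± 0.179 in PPARγ/+_5d (SD, n = 3). The lowest 0d library had a ratio of 3.64 and the highest 5d library 1.96, so that the days were apart in both cell types. On 0d the lowest WT library, with 5.43, was above the highest PPARγ/+ library, with 4.57, and on 5d the cell types overlapped.

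**Figure D4:**
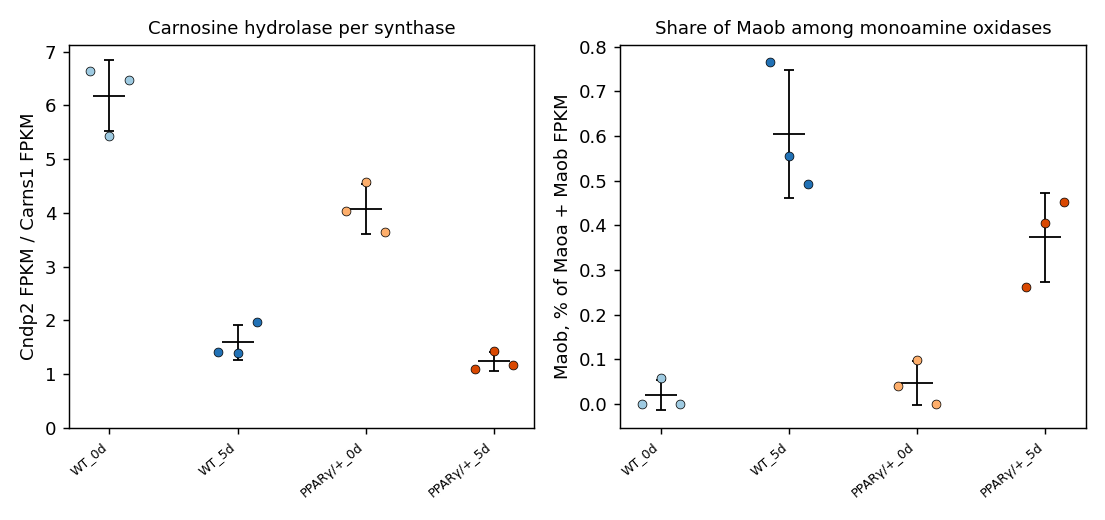
FPKM of *Cndp2*, the carnosine hydrolase, per FPKM of *Carns1*, the synthase (left), and *Maob* as a percentage of the summed FPKM of *Maoa* and *Maob* (right), with points for libraries and bars for the mean ± SD of 3 libraries in each group. The left ratio was 3.64 or more in 0d libraries and 1.96 or less in 5d libraries, and the right share was below 1% in all 12.

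*Carnmt1*, which methylates carnosine to anserine (chr19:18670764-18707200, plus strand), changed least of the 9 across the groups. In WT cells it measured 7.72, 8.78 and 9.30 FPKM on 0d and 6.46, 5.93 and 6.95 FPKM on 5d. The PPARγ/+ libraries held 8.51, 7.16 and 8.57 FPKM on 0d and 6.67, 6.36 and 5.77 FPKM on 5d. The 5d libraries were below the 0d libraries in both, by log2 differences of -0.41 (SE 0.11, adjusted p = 0.0260, limma) and -0.36 (SE 0.10, adjusted p = 0.0205) that were short of 2-fold. The cell types overlapped on both days, with log2 differences of -0.09 and -0.04 (SE 0.11 and 0.09). *Carns1* per *Carnmt1* went from 0.293 ± 0.0352 in WT_0d to 0.909 ± 0.147 in WT_5d, and from 0.380 ± 0.0152 in PPARγ/+_0d to 1.02 ± 0.0856 in PPARγ/+_5d (SD, n = 3).

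*Aspa*, aspartoacylase, splits N-acetylaspartate into acetate and aspartate and is listed with histidine metabolism in pathway maps. It lies at chr11:73304992-73329596 on the minus strand. In WT cells it measured 0.346, 0.413 and 0.501 FPKM on 0d and 1.05, 0.818 and 0.922 FPKM on 5d. The PPARγ/+ libraries held 0.509, 0.374 and 0.515 FPKM on 0d and 1.34, 1.16 and 1.59 FPKM on 5d. The days did not overlap in either cell type. *Aspa* rose by 1.37 on the log2 scale in PPARγ/+ cells (SE 0.19, adjusted p = 0.00121, limma), while the difference of 0.99 in WT cells (SE 0.20, adjusted p = 0.0112) fell just short of 2-fold. It passed there under 5 alternatives, with 1.14 when 0.01 FPKM was added, 1.10 with median-ratio scaling, 1.27 on recovered fragments, 1.10 without WT_0d replicate 3 and 1.07 without WT_5d replicate 2.

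That *Aspa* was called in 1 cell type did not show a difference between them, since the interaction was 0.38 (SE 0.27, adjusted p = 0.635, limma). On 5d the 3 PPARγ/+ libraries were above the 3 WT libraries, by 0.50 on the log2 scale (SE 0.17, adjusted p = 0.322), and on 0d the cell types overlapped, with 0.12 (SE 0.20, adjusted p = 0.763).

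The E-box CANNTG, which muscle regulatory factors such as MyoD bind, was sought in promoters on both strands. No promoter of *Maob*, *Carns1* or *Cndp2* was used, so that the motif counts of the enzymes leave these genes out. The promoters of the other enzyme genes were the 250 bases before the start in RefSeq (GRCm38.p6). Those of *Aspa*, *Hdc* and *Maoa* are shown because, of the genes searched and tested, these had the largest log2 differences between 0d and 5d in PPARγ/+ cells, and each E-box is in capitals. The windows are chr11:73324638-73324887 on the minus strand, chr2:126618679-126618928 on the minus strand and chrX:16619448-16619697 on the plus strand. Those of *Aspa* and *Hdc* lie inside the gene spans given above, since the RefSeq start is not the outermost start in the annotation used for positions.
Aspa: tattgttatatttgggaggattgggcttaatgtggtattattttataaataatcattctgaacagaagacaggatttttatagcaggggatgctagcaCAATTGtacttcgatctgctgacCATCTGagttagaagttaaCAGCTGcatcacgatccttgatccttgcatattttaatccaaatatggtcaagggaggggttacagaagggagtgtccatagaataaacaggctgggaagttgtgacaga
Hdc: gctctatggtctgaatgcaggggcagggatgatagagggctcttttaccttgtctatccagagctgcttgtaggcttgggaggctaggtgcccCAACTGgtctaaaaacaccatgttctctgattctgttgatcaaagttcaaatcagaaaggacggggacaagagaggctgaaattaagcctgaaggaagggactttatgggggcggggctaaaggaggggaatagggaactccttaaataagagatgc
Maoa: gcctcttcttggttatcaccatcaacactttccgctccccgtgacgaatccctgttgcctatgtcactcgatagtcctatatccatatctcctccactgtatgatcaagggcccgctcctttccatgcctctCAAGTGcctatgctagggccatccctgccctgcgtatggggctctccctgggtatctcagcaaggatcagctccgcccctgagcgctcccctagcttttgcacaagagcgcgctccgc
The *Aspa* window held 3 E-boxes, 110, 129 and 152 bases before the start, and those of *Hdc* and *Maoa* held 1 each, 157 and 118 bases before it. The windows of all 7 genes searched held at least 1, as did 66.217% of 32851 promoters of the same length. CAGCTG, a form that CANNTG includes, was in the windows of *Aspa* and *Carnmt1* and in 13.001% of all promoters. The direct repeat that PPAR and RXR bind, AGGTCA followed by any base and AGGTCA again, was in none of the 7 and in 0.033% of all promoters. The matches are letters in these windows and describe no binding.

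The other genes of these pathways were followed in 7 lists with 43 genes, of which 22 were tested. *Abat*, *Gadl1* and *Slc15a1* passed the filter only through libraries of 5d, so that their calls as higher on 5d concern genes admitted where they were high. In WT cells 4 of the 22 rose and 1 fell from 0d to 5d, beside 8.94% and 7.53% of all genes, and in PPARγ/+ cells 6 rose and 2 fell, beside 9.11% and 6.06%. In the other 3 comparisons limma called 0 of the 22, and the counts at an unadjusted p-value under 0.05 were 1 in the interaction, 3 between the cell types on 0d and 5 on 5d, beside 12%, 21.7% and 12.7% of all genes. *Aldh3b1*, an aldehyde dehydrogenase, was 6.12 ± 1.23 FPKM in WT_0d and 33.8 ± 13.5 in WT_5d, and 4.78 ± 0.451 in PPARγ/+_0d and 16.8 ± 2.54 in PPARγ/+_5d (SD, n = 3). It rose by 2.37 (SE 0.34, adjusted p = 0.00287, limma) and 1.78 (SE 0.12, adjusted p = 8.53e-05) on the log2 scale, and the other 5 tested of its list of 7 were not called.

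Among 4 other amine oxidases, the copper enzyme *Aoc3* rose and its neighbour *Aoc2* fell in both cell types. *Aoc3* was 0.809 ± 0.436 FPKM in WT_0d, 5.21 ± 2.81 in WT_5d, 2.11 ± 0.747 in PPARγ/+_0d and 17.3 ± 2.18 in PPARγ/+_5d, with log2 changes of 2.54 (SE 0.56, adjusted p = 0.0139, limma) and 3.02 (SE 0.25, adjusted p = 1.79e-04). *Aoc2* went from 2.34 ± 0.753 to 0.810 ± 0.200 FPKM in WT cells and from 2.69 ± 0.584 to 1.18 ± 0.0685 FPKM in PPARγ/+ cells (SD, n = 3), falls with log2 changes of -1.40 (SE 0.27, adjusted p = 0.00873) and -1.10 (SE 0.18, adjusted p = 0.00243). Under median-ratio scaling the difference of *Aoc2* in PPARγ/+ cells was -0.98 and short of 2-fold.

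Of the 8 genes of β-alanine supply and carnosine hydrolysis 4 were tested, and 3 of these rose in PPARγ/+ cells and 1 in WT cells, where 9.11% and 8.94% of all genes were called as higher. These counts include *Abat* in both cell types and *Gadl1* in PPARγ/+ cells, which passed the filter only through libraries of 5d. They are therefore no measure of the list beside the shares of all genes. *Csad*, which makes hypotaurine from cysteine sulfinate and can also make β-alanine, went from 12.3 ± 0.960 to 27.1 ± 2.05 FPKM in PPARγ/+ cells (SD, n = 3), a log2 change of 1.14 (SE 0.08, adjusted p = 9.95e-05, limma), and its log2 difference in WT cells was 0.85 (SE 0.25, adjusted p = 0.0367), short of 2-fold. Without a stranded kit its fragments cannot be told apart from those of *Zfp740* on the other strand, with which it shares 278 bases. The next genes are named after their values were seen, because they are the remaining calls. *Abat*, which transaminates β-alanine, rose by 1.56 in WT cells (SE 0.41, adjusted p = 0.0277) and by 2.23 in PPARγ/+ cells (SE 0.23, adjusted p = 3.97e-04), from 19 to 173 and from 38 to 325 fragments over 3 libraries. *Gadl1*, which makes β-alanine from aspartate, had 2 fragments in PPARγ/+_0d and 37 in PPARγ/+_5d, 22.0-fold more with an exact 95% interval of 5.67 to 188, while WT cells had 3 and 15 fragments, a ratio of 5.02 (1.42 to 27.0) without a call by limma.

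Of 12 transporters 4 were tested. *Slc7a5*, a carrier of large amino acids that include histidine, fell in PPARγ/+ cells from 17.0 ± 2.45 to 7.83 ± 0.813 FPKM (SD, n = 3), with a log2 change of -1.10 (SE 0.13, adjusted p = 5.82e-04, limma). This call was lost under the other scalings, with -0.97 for median-ratio, -0.95 for quantile and -0.98 for recovered fragments. *Slc15a1*, a carrier of dipeptides and also named after its values were seen, had 3 fragments on 0d in each cell type and 35 in WT_5d and 54 in PPARγ/+_5d, 11.7-fold (3.69 to 59.5) and 21.4-fold (6.94 to 107) more. Its call in WT cells did not hold without WT_5d replicate 3, where the log2 difference was 0.99. Of the 4 histamine receptors 1 was tested and not called, *Hrh1*, also named after its values were seen. In WT cells it measured 0.138 ± 0.0489 FPKM on 0d and 0.0775 ± 0.0377 FPKM on 5d. In PPARγ/+ cells it measured 0.106 ± 0.0283 FPKM on 0d and 0.0940 ± 0.0338 FPKM on 5d (SD, n = 3). Of the 3 genes of histidine breakdown after *Hal* 1 was tested, and of the 5 genes around N-acetylaspartate 2 were tested. In WT cells 1 of these last 2 and in PPARγ/+ cells all of these had an unadjusted p-value under 0.05 between 0d and 5d, as had 46.8% and 54.4% of all genes, each with a fold change under 2.

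For *Maob* and *Hdc*, the enzymes with the widest range of group means, the genes of the most similar profile were sought among all genes tested, by the root mean square difference of log2(FPKM + 0.1) over the 12 libraries after centring. *Maob*, with a range of 1.59, was nearest to *Ugt1a7c* (0.210), A230072C01Rik (0.210) and the mitochondrial *mt-Tp* (0.223). *Hdc*, with a range of 1.58, was nearest to *Gipr* (0.296), *St3gal1* (0.316) and *Tnfaip3* (0.318). These were lowest in PPARγ/+_0d like *Hdc*, which follows from their choice by likeness. The libraries share their depth and scale, and the likeness is a description without a test.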

How the data were processed

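RNA of C2C12 cells was sequenced in 12 libraries, 3 for each cell type and day, which were grouped by their titles. The deposited FPKM were calculated by the authors from HTSeq counts on Ensembl GRCm38 genes, after trimming by Trim Galore and alignment by STAR, while the submitters' processing notes name mm9, and the versions of these tools are not given in the sources used here. A further deposited table of log2 FPKM was not used. The kit does not mark the strand. Gene lengths and positions were taken from a later annotation of GRCm38.

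Whole fragments were recovered from the FPKM, the exonic length and the depth, within 0.01 of a whole number for 21224 of 27138 expressed genes with the annotated length and for 5913 with an inferred one, among them *Carns1*, *Cndp2* and *Carnmt1*. They served for depths, for counting ratios with exact (Clopper-Pearson) 95% intervals where a group held 1 to 3 fragments, and for an alternative. Intervals and the limit of 3 fragments cover counting error only.

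The log2(FPKM + 0.1) of 18023 genes that reached 0.1 FPKM in 3 libraries or more was fitted with limma 3.58.1 in R 4.3.3 (empirical Bayes, with a trend), on the 6 libraries of each comparison and on all 12 for the interaction, after a test on simulated data. The p-value threshold was 0.05, unadjusted and with a 2-fold change between days as in the study, adjusted (Benjamini-Hochberg) and with a 2-fold difference between cell types, and adjusted in the interaction. All members were named, pathway genes where they were called and reached 1 FPKM in their higher group (others are marked in the text as named after their values were seen), and 3 similar genes for each of the 3 members of the widest range, of which those for *Aspa* are not reported here. The members and lists were chosen with earlier results of these data known. Alternatives were the value added, the filter, the scaling, the recovered fragments, all 12 libraries in 1 fit, a replicate block, an adjusted p-value between days and each library left out. Leaving out WT_0d replicate 2 and WT_5d replicate 3 together was chosen after seeing the data. Python 3.11.15 with pandas 2.3.3, numpy 2.4.6 and matplotlib 3.10.9 served for the tables and figures.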

Additional observations from a re-analysis of the deposited data

How the results depend on the processing

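Over 60 genes and comparisons, 994 alternative values were computed, of which 926 kept their direction and their side of the threshold, 37 lost the call, 14 gained it and 17 changed direction. The number of enzymes called from 0d to 5d went from 3 to 0 in WT cells and from 4 to 0 in PPARγ/+ cells with 1 FPKM added. A filter of 1 FPKM left 5 enzymes to test, of which 1 was called in WT cells and 2 in PPARγ/+ cells. Beside them 1997 and 1806 of all 12290 genes tested were called. The number went from 0 to 1 in the interaction and on 5d without WT_5d replicate 3, with or without WT_0d replicate 2 (*Maoa*), and from 0 to 1 on 0d (*Hnmt*) and on 5d (*Maoa*) with all 12 libraries in 1 fit. With each library left out in turn, the number called was 2 to 4 in WT cells, 3 to 4 in PPARγ/+ cells, 0 to 1 in the interaction, 0 on 0d and 0 to 1 on 5d. Where no cause is given, the cause was not tested.

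With libraries left out in turn, several log2 values changed direction. *Maoa* in WT cells lay between -0.28 (without WT_5d replicate 3) and 0.18, and was -0.0027 without WT_0d replicate 1. *Hdc* in WT cells lay between -0.28 (without WT_0d replicate 3) and 0.53, or 0.82 without WT_0d replicate 2 and WT_5d replicate 3 together, and was -0.26 without WT_5d replicate 2. Its difference on 5d lay between -0.60 and 0.19, the latter without WT_5d replicate 2. *Hnmt* in PPARγ/+ cells, where both days held 3 fragments or fewer, lay between -0.21 and 0.090. *Carnmt1* lay between -0.034 and 0.12 in the interaction and between -0.098 and 0.018 on 5d, and *Hal* between -0.031 and 0.14 on 0d. The interaction of *Maob* was -0.16 with 0.01 FPKM added and -0.020 on recovered fragments.

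Deviations of libraries with the same number correlated between -0.0678 and 0.0834 over 18 pairs, with 0 above 0.1. No pairing by number was seen in them, which does not settle whether such libraries share a culture. With a replicate block the number of enzymes called was 3 in WT cells, 4 in PPARγ/+ cells and 0 in the other comparisons, and over all genes the calls went from 137 to 61 in the interaction and from 287 and 28 to 0 and 0 on 0d and 5d. The block changed 2 of the 60 calls, those of *Pparg* on 0d and 5d (adjusted p = 0.0588 and 0.0911, limma). Over all genes, 2970 were called in WT cells and 1441 with 1 FPKM added, 2735 in PPARγ/+ cells and 1241 with 1 FPKM added or 1806 with a filter of 1 FPKM. On 0d 287 were called, 115 with 1 FPKM added, 107 without a filter and 55 to 137 with 1 library left out. On 5d 28 were called, 8 and 71 with 1 and 0.01 FPKM added, 199 with all 12 libraries in 1 fit, 723 without WT_5d replicate 3 and 1 to 8 with another library left out. In the interaction 137 were called, 527 without WT_5d replicate 3, 488 without WT_0d replicate 2 as well, and 42 to 153 with another library left out. Values resting on 3 fragments or fewer, those of *Hnmt*, *Maob* and *Aoc1* in several groups, are limited by depth.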
